A study of Mus musculus with 6 samples.

Results

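The proteasome is the large protease that breaks down proteins tagged with ubiquitin. This report describes its transcripts in carotid bodies of 2 inbred mouse strains. Members were taken by name: every probe set whose platform annotation gives a single gene symbol beginning with Psma, Psmb, Psmc, Psmd, Psme or Psmg. This rule found 99 of the 45101 probe sets on the array, for 48 genes. Of these, 80 probe sets of 46 genes lay in the upper 60% of all probe sets by mean signal and were tested. The 19 that were too dim to test included every probe set of Psma8 and Psmb11, which elsewhere belong to testis and thymus. Psme2 has only a probe set annotated to Psme2b as well, so it is not a member. The rule also takes Psmc3ip, a meiotic recombination factor, and Psme3ip1, a partner of an activator, neither of which is a subunit.

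The carotid body senses blood oxygen and lies where the carotid artery divides. The arrays held RNA pooled from untreated male mice of strains A/J and DBA/2J, both 28 days old and supplied by Jackson Lab. The 3 A/J pools came from 20, 21 and 19 mice (40, 42 and 38 carotid bodies), and the 3 DBA/2J pools from 19, 18 and 19 mice (38, 36 and 38 carotid bodies). Spread between arrays is therefore spread between pools, not mice, and in such bulk RNA a change in the number of cells of a type cannot be told apart from a change in RNA per cell. The comparison asks which transcripts differ between the strains. Signals are in arbitrary units. A log2 difference is the DBA/2J mean less the A/J mean after log2(signal + 16), so a value below 0 is lower in DBA/2J. Signals of different probe sets depend on their probes and are not compared as RNA levels.

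The core of the proteasome is a barrel of stacked rings, called the 20S particle. Its outer rings are built from alpha subunits and its inner rings from beta subunits, of which Psmb5, Psmb6 and Psmb7 carry the protease sites. The 19S particle caps the barrel, with a base of ATPases that unfold and feed in the substrate and a lid that removes ubiquitin. Cells exposed to interferon swap the catalytic beta subunits for Psmb8, Psmb9 and Psmb10, which gives the immunoproteasome. When the proteasome is inhibited, the transcription factor Nfe2l1 raises the transcription of many subunits together through antioxidant response elements in their promoters.

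The results turn on Psmd6 and Psmb6, so the 250 bases before the start of each gene are shown, with those of Psmb5 as another catalytic subunit that did not pass the test. The sequences are RefSeq's (C57BL/6J reference, GRCm38.p6, not A/J or DBA/2J), run 5′ to 3′ on the strand of the gene and lie upstream of its annotated start. Capitals mark the core of the antioxidant response element, TGACNNNGC, searched on both strands. The Psmd6 window is chr14:14120946-14121195 on the minus strand, the Psmb6 window chr11:70525107-70525356 on the plus strand and the Psmb5 window chr14:54617996-54618245 on the minus strand.
Psmd6: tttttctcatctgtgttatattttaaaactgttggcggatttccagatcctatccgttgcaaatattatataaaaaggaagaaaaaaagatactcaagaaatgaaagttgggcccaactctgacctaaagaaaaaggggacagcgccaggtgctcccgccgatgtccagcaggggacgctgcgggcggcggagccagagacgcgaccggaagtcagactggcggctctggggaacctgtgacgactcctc
Psmb6: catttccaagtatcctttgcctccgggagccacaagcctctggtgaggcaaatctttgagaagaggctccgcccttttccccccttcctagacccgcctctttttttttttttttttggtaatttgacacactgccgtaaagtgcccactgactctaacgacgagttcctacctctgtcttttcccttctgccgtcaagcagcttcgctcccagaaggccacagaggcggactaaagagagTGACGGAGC
Psmb5: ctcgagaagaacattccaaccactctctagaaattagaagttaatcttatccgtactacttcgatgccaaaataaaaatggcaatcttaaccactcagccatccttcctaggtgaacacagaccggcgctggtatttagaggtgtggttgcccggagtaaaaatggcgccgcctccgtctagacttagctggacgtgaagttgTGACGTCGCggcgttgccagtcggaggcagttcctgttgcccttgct

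The element core begins 9 bases before the start of Psmb6 and 47 bases before that of Psmb5, and these letters are not in the Psmd6 window. Windows were given for 40 of the 48 genes (43 windows, as some genes have several). The core was in 5 of them (11.6%), those of Psmb5, Psmb6, Psmc6, Psmd9 and Psmd12, against 10.2% of the 32851 windows of all genes. A CCAAT box, searched as CCAAT on both strands, was in 16 of 43 (37.2%) against 33.8%. Both shares lay near those of all genes.

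Facts of the whole series that bear on these values are as follows. Pearson correlations between arrays over the tested probe sets were 0.904 to 0.959 within a strain and 0.878 to 0.924 between strains, and DBA/2J array 2 stood farthest from its group, at 0.904 and 0.932. The Gapdh 3′ to 5′ signal ratio, a measure of RNA integrity and amplification, spanned 1.74 to 4.87 on the A/J arrays and 1.73 to 3.28 on the others. All 13 tested skeletal muscle markers (of 14 listed) fell in DBA/2J, and their summed signal was 0.163% to 0.392% of the total on A/J arrays and 0.00374% to 0.00881% on DBA/2J arrays. Of the 9 tested type I cell markers, 5 rose and 0 fell, with sums of 0.0936% to 0.112% and 0.195% to 0.209%. Of 6 adipocyte and 3 erythroid markers, 2 and 1 fell. None of the tested markers of macrophages (10), T cells (2), B cells (2), smooth muscle (4), endothelium (5) or glia (4), or of 10 interferon-stimulated genes, was called by limma. No probe set was listed at 0, the lowest value being 0.1.

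The proteasome probe sets that passed the test were lower in DBA/2J. A probe set of Psmd6 and the only probe set of Psmb6 fell, and the other 78 tested probe sets did not pass. That is 2 of 80 called (2.5%), with limma and Benjamini-Hochberg adjustment over all 27022 tested probe sets, where 3.27% of all tested probe sets were called, so the members' share lay near that of all. Without 1 array at a time the members called stayed at 2, while those called over all ran from 345 (without DBA/2J array 1) to 1338 (without DBA/2J array 2), against 883 with all 6. Split by direction, 2 were lower (1.41% of all probe sets) and 0 higher (1.86%). Counted as genes, with the probe set of highest mean standing for each, 2 of 46 were lower, Psmd6 through 1 of its 2 probe sets (1.6% of all 13006 genes) and 0 higher (2.17%). At an unadjusted p under 0.05 there were 3 (3.75%, against 15.3% of all), the third being a probe set of Psmc3ip. The series' own rule of 6 of 9 array pairs at 1.5-fold was also applied, with limma's unadjusted p in place of its own test. A strain difference of at least 1.5-fold in mean log2 signal was required as well. Under these conditions the same 2 were called, against 9.36% of all. They were also the only members with an absolute log2 difference over 1, a size that 4.76% of all tested probe sets exceeded.

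**Figure D1:**
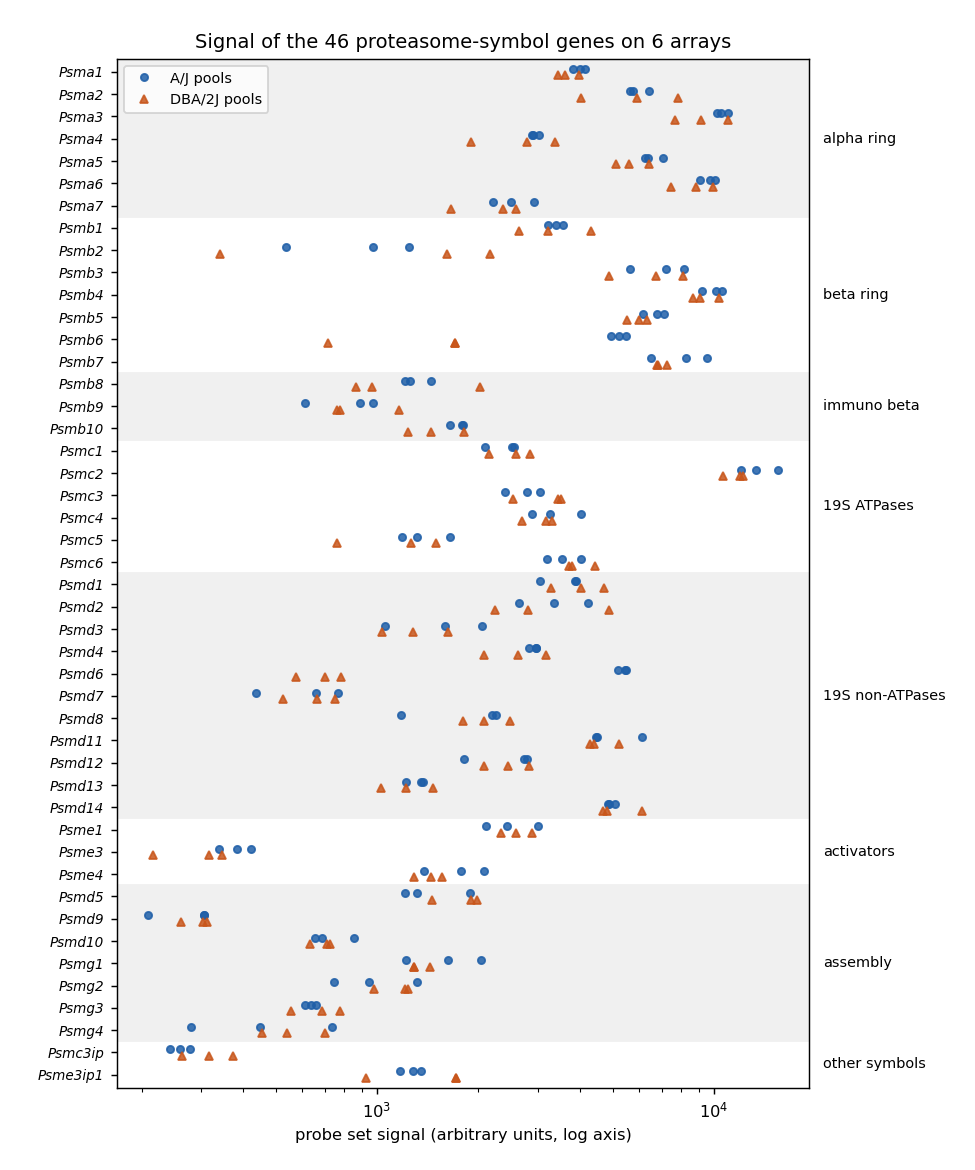
Signal of the probe set that stands for each of 46 genes (highest mean over the arrays), grouped by role, on a log axis. Circles are the 3 A/J pools and triangles the 3 DBA/2J pools. The strains lie far apart for Psmd6 and Psmb6, while they overlap for every other gene shown.

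The remaining members lay close to 0. The log2 difference of 76 of the 80 probe sets (95%) lay from -0.5 to 0.5, against 80.02% of all tested probe sets, and their median was -0.03, where that of all probe sets was 0.01. For 72 of 80 (90%) the 95% interval lay inside -1 to 1, which excludes a doubling or a halving, against 70.1% of all. The spread between arrays of a strain was also smaller, with a median within-strain SD of 0.23 on the log2 scale against 0.29. Members were also brighter than most probe sets, with a median signal of 1459 against 426; the part of brightness in the smaller spread was not tested. The arrays of the strains did not overlap for 6 of 80 probe sets (7.5%), against 21.1% of all. Of these, 4 were lower in DBA/2J (9.54% of all) and 2 higher (11.5%).

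**Figure D2:**
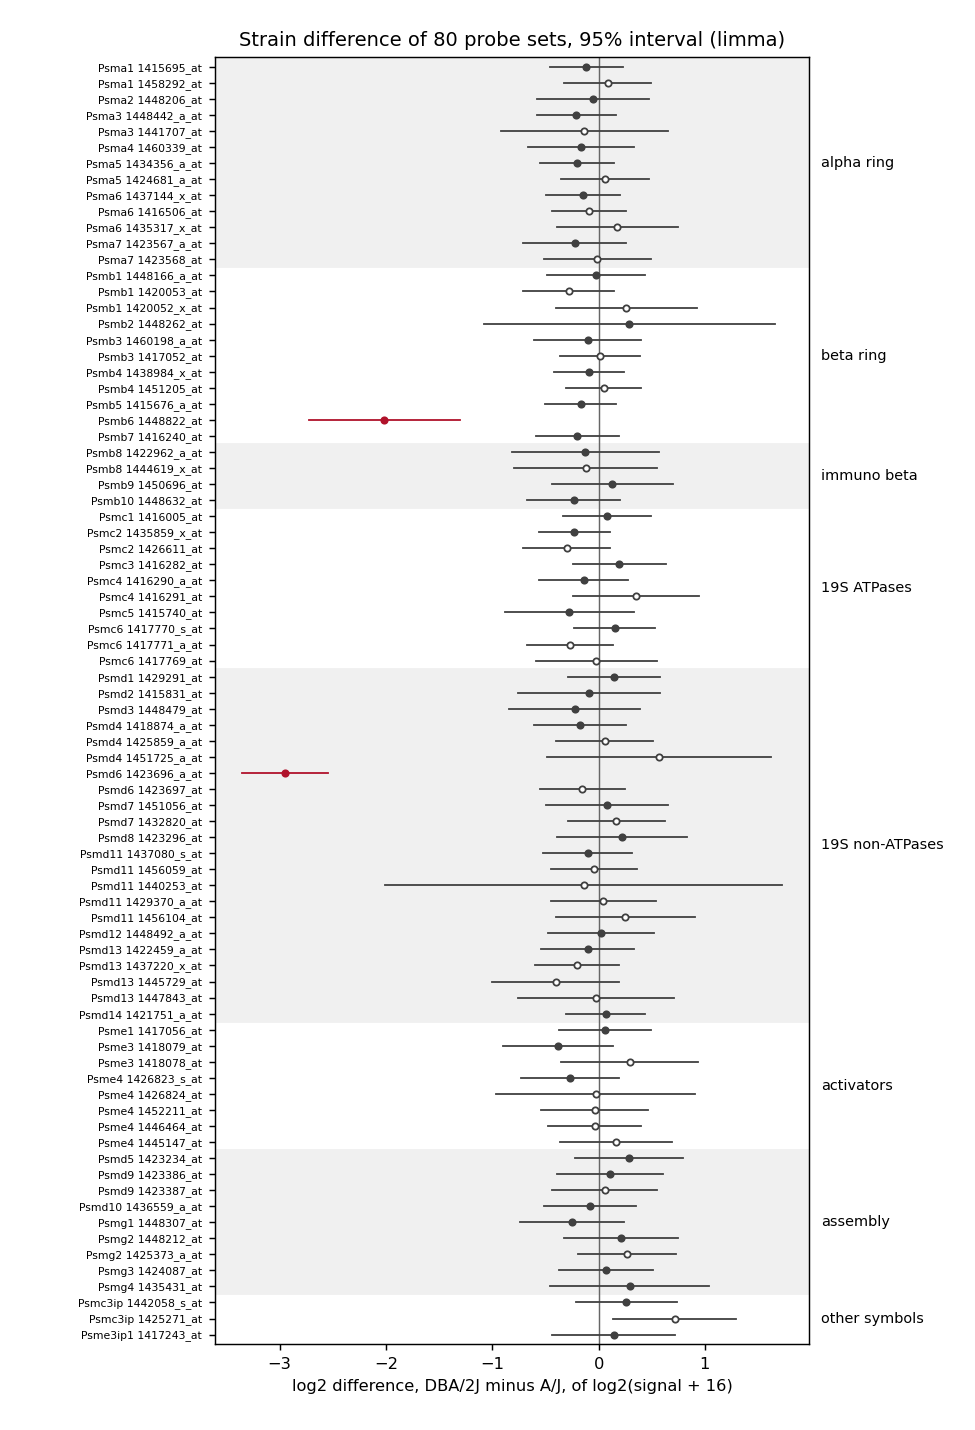
Log2 difference (DBA/2J minus A/J) of each of the 80 tested probe sets with its 95% limma interval, grouped by role; filled points stand for their gene, open points are further probe sets of it, and red marks an adjusted p under 0.05. The red points are Psmb6 at -2.02 and 1 of the 2 Psmd6 probe sets at -2.95.

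Psmd6 encodes a subunit of the 19S lid, and its 2 probe sets gave different answers. They are called here by the endings of their names, _a_at, which marks probes shared by alternative transcripts of a gene, and _at. Psmd6 was singled out with earlier results of these data known, so its pattern is not an independent find. The _a_at probe set had signals of 5434.5, 5496.1 and 5173.9 in the A/J pools and 573.1, 783.7 and 700 in the DBA/2J pools. Every DBA/2J pool lay far below every A/J pool. The means were 5368 ± 171 and 686 ± 106 (SD, n = 3), a ratio of 7.83, with a log2 difference of -2.95 (SE 0.18, limma adjusted p = 0.000120). By p it had rank 10 among all tested probe sets.

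The _at probe set, listed under the same reference sequence in the annotation, had 1919.2, 1944.5 and 2187.4 in A/J and 1887.2, 1982.7 and 1586.9 in DBA/2J. Here the strains overlapped, with means of 2017 ± 148 and 1819 ± 207 and a log2 difference of -0.15 (95% interval -0.55 to 0.24, adjusted p = 0.764). Within each array the _a_at signal was 2.83, 2.83 and 2.37 times the _at signal in A/J and 0.304, 0.395 and 0.441 times in DBA/2J. The ratio was above 1 on every A/J array and below 1 on every DBA/2J array.

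The difference between the probe sets was tested across the array. For every gene with several tested probe sets, each was set against the one with the highest mean, which gave 9403 pairs of 5671 genes. The strain difference of the _at probe set exceeded that of the _a_at probe set by 2.80 (SE 0.22, limma adjusted p = 0.000698 over all pairs), rank 18 by size. Of all pairs 0.968% were called, and of the 34 pairs among members 1 (2.94%). Leaving out any array left this call in place, with differences from 2.65 to 2.91.

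**Figure D3:**
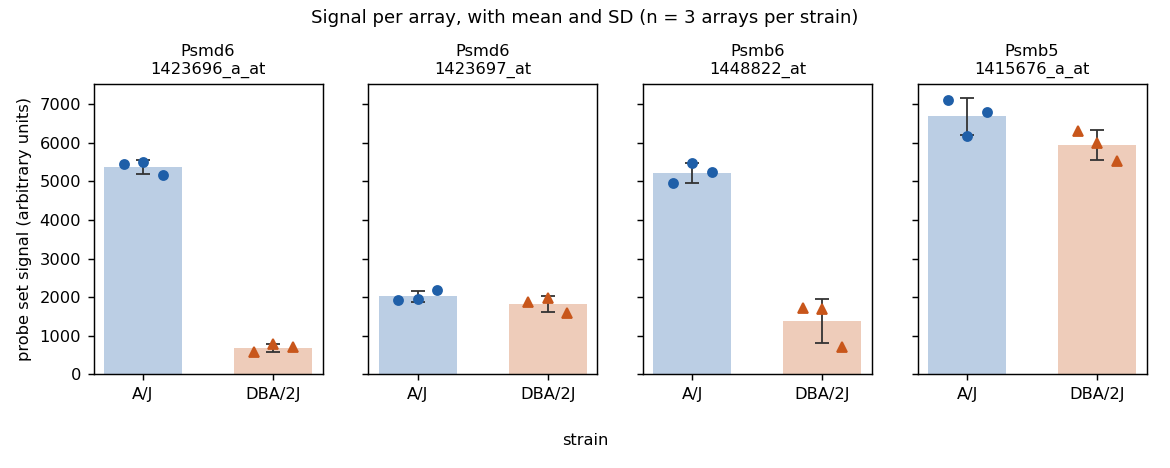
Signal (arbitrary units, axis from 0) of both Psmd6 probe sets, of Psmb6 and of Psmb5 in the 3 A/J and 3 DBA/2J pools; points are arrays, bars means and whiskers SD. The _a_at probe set of Psmd6 and Psmb6 are lower in every DBA/2J pool, while the _at probe set of Psmd6 overlaps between the strains.

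Which probe set speaks for Psmd6 decides what is said of the gene. Over the 6 arrays their mean log2 values were 10.92 for _a_at and 10.91 for _at, so the former stood for the gene by a small margin. With quantile normalization, or without any 1 of the A/J arrays, the _at probe set took its place, and Psmd6 was then not called as a gene. The nearest genes with a tested probe set were Thoc7 and Atxn7 on one side and Lrrc3b and Oxsm on the other, and none of them was called. Of these genes only Thoc7 had strains that did not overlap, with every DBA/2J array above every A/J array (log2 difference 0.27, limma adjusted p = 0.536). Of all tested probe sets 21.1% did not overlap between the strains. Probe sequences were not used here, so where each probe set lies in the transcript was not examined.

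Psmb6 encodes the beta subunit with caspase-like activity, which cuts after acidic residues. Its single probe set had 4945.8, 5474.6 and 5236.1 in A/J and 1708.7, 1697.6 and 714.5 in DBA/2J. The strains did not overlap, and DBA/2J array 3 lay well below its companions. The means were 5219 ± 265 and 1374 ± 571 (SD, n = 3), a ratio of 3.80, with a log2 difference of -2.02 (SE 0.31, 95% interval -2.73 to -1.31, limma adjusted p = 0.00969). Without DBA/2J array 3 the difference was -1.61 (adjusted p = 0.00421), and without A/J array 3 it was -2.01 (adjusted p = 0.0485).

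With 1 probe set, the check by another probe set that Psmd6 allowed could not be made for Psmb6. RefSeq also lists 2 pseudogenes named after it, Psmb6-ps and Psmb6-ps2, and whether the probe set reads them was not tested. The nearest tested genes, Cxcl16, Zmynd15, Pld2 and Mink1, were not called. Over these and the 4 neighbours of Psmd6 the log2 differences ran from -0.47 (Mink1) to 0.61 (Zmynd15), with a lowest adjusted p of 0.528. Skeletal muscle, adipocyte, erythroid and glia marker signal was also higher on every A/J array than on any DBA/2J array. Type I cell and endothelium marker signal was lower on every A/J array. Their part in the falls of Psmb6 and the Psmd6 _a_at probe set was not tested.

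The alpha ring, which gates the entry to the barrel, showed no called gene. Of its 7 tested genes 0 rose and 0 fell by limma, where 3.77% of all genes were called. None had an unadjusted p under 0.05, against 15.3% of all tested probe sets. With 7 genes, such counts do not set the ring apart from all genes. With the probe set of highest mean for each gene, all 7 differences were below 0, from -0.22 (Psma7) to -0.05 (Psma2). Their median was -0.17 and their median SE 0.16, while 47.0% of all genes lay below 0. The further tested probe sets went both ways. Those of Psma1 and Psma5 gave 0.08 and 0.06, those of Psma6 0.18 and -0.09, and those of Psma3 and Psma7 -0.13 and -0.01. Psma3, the brightest, had 10995.6, 10506.1 and 10221.2 in A/J and 9124.3, 10974.5 and 7642.4 in DBA/2J. Psma7, the dimmest, had 2919, 2503 and 2215.8 against 2576.1, 2368.8 and 1660.7. In both genes the strains overlapped, and DBA/2J array 3 was the lowest.

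In the beta ring, 6 of 7 genes did not pass and Psmb6 fell, where 3.77% of all genes were called in either direction. Psmb5, with chymotrypsin-like activity, had 7096, 6163.3 and 6781.2 in A/J and 6309.8, 5990.3 and 5530.4 in DBA/2J (log2 difference -0.17, 95% interval -0.50 to 0.17, adjusted p = 0.681). Psmb7, with trypsin-like activity, had 9554.4, 6517.8 and 8236.1 against 6788, 7278.5 and 6841.8 (-0.20, interval -0.59 to 0.19, adjusted p = 0.674). Both intervals exclude a fall of the size seen for Psmb6. The brightest probe set, of the structural subunit Psmb4, had 10548.2, 10127.2 and 9206.3 against 9097.8, 10327.5 and 8650.6 (-0.09).

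Alpha and beta rings together had 13 of 14 genes below 0, the exception being Psmb2, with a median of -0.16. DBA/2J array 3 held the lowest of the 6 values in 10 of the 14, and in 18 of the 46 member genes. Over all genes it did so in 20.1%. Without that array 11 of 14 were below 0 with a median of -0.07, and with quantile normalization 10 of 14, also at -0.07. Leaving out each other array gave 12 to 14 genes below 0 and medians from -0.22 (without DBA/2J array 2) to -0.11 (without A/J array 1). The lean was below 0 in each of these settings, and its size moved in both directions with the arrays used. All of these counts use the probe set of highest mean of each gene. The further tested probe sets of these rings went both ways. Those of the alpha ring are given above, and in the beta ring Psmb1 had 0.26 and -0.28, Psmb3 0.01 and Psmb4 0.05. The 34 further tested probe sets of all members, which include those outside the rings, had 17 above 0, 17 below and a median of -0.0004.

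**Figure D4:**
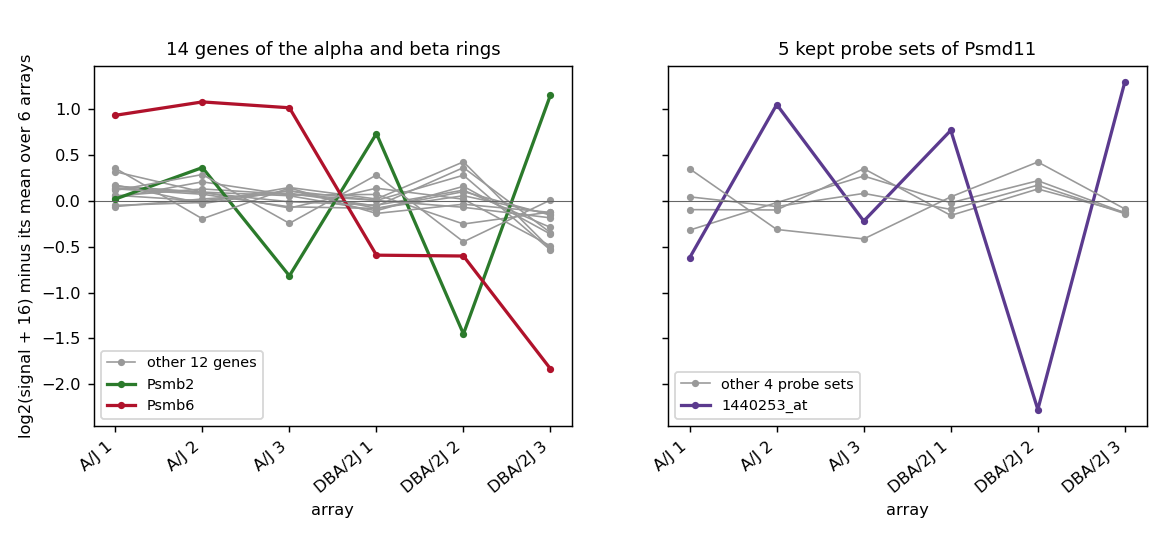
Log2(signal + 16) of each gene or probe set minus its mean over 6 arrays, for the 14 genes of the alpha and beta rings (left) and the 5 tested probe sets of Psmd11 (right); lines only join the values of one feature, as arrays have no order. Psmb6 is low on the 3 DBA/2J arrays, while Psmb2 and 1 Psmd11 probe set swing between arrays of one strain.

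Psmb2, another structural beta subunit, was the most variable member gene. Its signals were 974.3, 1240.1 and 538.2 in A/J and 1607.7, 341.3 and 2157.3 in DBA/2J. Both the highest and the lowest value came from DBA/2J, and the log2 difference of 0.29 had an interval of -1.08 to 1.66 (adjusted p = 0.886). The within-strain SD was 1.08, against a median of 0.23 for member genes. A similar swing, picked out after its values were seen, was that of 1 probe set of Psmd11, a subunit of the 19S lid, with 520.1, 1688.9 and 690.8 in A/J and 1386.5, 154.2 and 2006.9 in DBA/2J. It was lowest on DBA/2J array 2, where the other 4 Psmd11 probe sets lay 0.13 to 0.42 above their means on the log2 scale. Over the 6 arrays Psmb2 and this probe set correlated at r = 0.902, and Psmb2 and the brightest Psmd11 probe set at -0.792. These are descriptions over the same 6 arrays. Psmb2 correlated with the log2 Gapdh 3′ to 5′ ratio at -0.155. Over the member genes this correlation ran from -0.865 (Psmd7) to 0.684 (Psmd3). The part of RNA integrity in the members' values was not tested.

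Immunoproteasome subunits did not pass the test. Psmb8, which replaces Psmb5, had 1214.2, 1256.5 and 1444.9 in A/J and 964.1, 2026.8 and 867.4 in DBA/2J (log2 difference -0.12, adjusted p = 0.906). DBA/2J array 2 was the highest of all and the other two DBA/2J arrays were the lowest. Psmb9, which replaces Psmb6, had 888.6, 609.4 and 970.7 against 778.4, 1165.5 and 762.5 (0.13, adjusted p = 0.876). Psmb10, which replaces Psmb7, had 1651.2, 1802.4 and 1783.5 against 1450.1, 1811.3 and 1237.6 (-0.23, adjusted p = 0.660).

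All 3 were highest on DBA/2J array 2, as were 23.9% of all genes, the largest share of the 6 arrays. The summed signal of 10 interferon-stimulated genes was also highest there, at 0.0357% of the total, against 0.0244% and 0.0329% on DBA/2J arrays 1 and 3 and 0.0250% to 0.0318% in A/J. That of the T cell markers was highest there too, at 0.00374%, against 0.00264% to 0.00335% on the other arrays. That of the B cell markers was 0.00189% there and 0.00121% to 0.00153% on the others. These sums are mostly of dim probe sets, as 2 of 9 T cell and 2 of 4 B cell markers were bright enough to test. The sum of the 10 macrophage markers was not highest there, at 0.112%, against 0.119% on A/J array 3. Their part in the values of Psmb8, Psmb9 and Psmb10 was not tested. Psmb11, of the thymus, was too dim to test, with 33.2, 6.8 and 35.9 in A/J and 9.1, 40.9 and 9.2 in DBA/2J.

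Each immunoproteasome subunit was also set against the subunit it replaces within each array. The strain difference of Psmb8 minus Psmb5 was 0.04 and that of Psmb10 minus Psmb7 was -0.03 on the log2 scale, both inside the spread between arrays (exact permutation p = 1 and 0.9, two-sided). That of Psmb9 minus Psmb6 was 2.15, with array values of -2.46, -3.13 and -2.41 in A/J and -1.12, -0.54 and 0.09 in DBA/2J. The strains did not overlap, and the exact p was 0.1, the smallest that 3 against 3 arrays can give (0.3 adjusted over the 3 pairs). Of its parts, Psmb9 differed by 0.13 and Psmb6 by -2.02.

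The ATPases of the 19S base showed no called gene among 6, where 3.77% of all genes were called. Their differences ran from -0.28 (Psmc5) to 0.19 (Psmc3), with a median of -0.03. Psmc2, which had the brightest probe set of all members, had 15468, 12066.7 and 13298.1 in A/J and 12215.2, 11919 and 10616.1 in DBA/2J (log2 difference -0.23, adjusted p = 0.547). Its other tested probe set gave -0.30 (adjusted p = 0.507). Psmc5, the dimmest, had 1312.2, 1185.9 and 1645.5 against 1257.1, 761 and 1495.5. Psmc2 was lowest on DBA/2J array 3 and Psmc5 on DBA/2J array 2, and the strains overlapped in both genes.

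Among the 11 non-ATPase subunits of the 19S, 10 did not pass and Psmd6 was called through its _a_at probe set alone. Of all genes 3.77% were called. The median of the 11 was -0.09. Without Psmd6 the range was from -0.23 (Psmd3) to 0.22 (Psmd8). Psmd14, the enzyme of the lid that cuts ubiquitin from substrates, had 4836.2, 4892.5 and 5082.2 in A/J and 6111.2, 4798.2 and 4693.9 in DBA/2J (log2 difference 0.06, 95% interval -0.30 to 0.43). Psmd7, which pairs with Psmd14, had 767.4, 436.2 and 657.5 against 749.6, 526 and 662.3 (0.08, interval -0.49 to 0.65). Both pairs of groups overlapped, and both intervals leave out a difference of the size seen with the Psmd6 _a_at probe set.

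Activators that open the alpha ring in place of the 19S particle did not pass. Psme1, induced by interferon, had 2437.5, 2110.3 and 3006.9 in A/J and 2584.1, 2890.1 and 2332.2 in DBA/2J (log2 difference 0.06, adjusted p = 0.935). Psme3, the nuclear activator, had 384.4, 339.6 and 421.6 against 316.7, 347.1 and 216.6 (-0.38, adjusted p = 0.504), while its other tested probe set had 196.7, 166.4 and 193.6 against 175.5, 192.6 and 357.1 (0.29, adjusted p = 0.715). On DBA/2J array 3 one was at its lowest and the other at its highest. Psme4, which binds acetylated histones for degradation, had 2075.6, 1774.6 and 1377 against 1287.5, 1555.5 and 1448.3 (-0.27, adjusted p = 0.630). Its other tested probe sets gave -0.03, 0.16, -0.04 and -0.04.

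Assembly chaperones, which build the particle and leave it, did not pass the test. Of 7 genes 0 were called by limma (against 3.77% of all genes), 5 lay above 0 and the median was 0.11. The range was from -0.25 (Psmg1) to 0.29 (Psmg4 and Psmd5), and the SE of a single gene's difference had a median of 0.22. Psmd5, the brightest, had 1884, 1211.9 and 1316.5 in A/J and 1986.2, 1898.2 and 1454.9 in DBA/2J (log2 difference 0.29, adjusted p = 0.641). Psmd9, the dimmest, had 209.6, 305.7 and 306.4 against 304.1, 262.2 and 311.9 (0.11). Psmg4 had 279.4, 733 and 447.7 against 701.1, 454 and 541.5 (0.29, adjusted p = 0.761), and its spread within A/J covered all 3 DBA/2J values.

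The symbols that are no subunits also stayed below the threshold. For Psmc3ip, the dimmer probe set had 155.9, 282.7 and 202.3 in A/J and 291.9, 371.2 and 400 in DBA/2J, which did not overlap (log2 difference 0.72, adjusted p = 0.209). The brighter one had 277.9, 260.6 and 243 against 316.1, 374.1 and 263.6 (0.26, adjusted p = 0.647). Psme3ip1 had a difference of 0.14.

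Apart from Psmd6, no pair of probe sets of one gene passed the test of their difference. The other 33 pairs, of 21 genes, differed by -0.42 to 0.74 in their strain difference, with a lowest limma adjusted p of 0.481 and 1 unadjusted p under 0.05 (Psmc6). The largest was Psmd4, a ubiquitin receptor, whose dimmest tested probe set had 108.6, 84.6 and 169.8 in A/J and 307.7, 74.7 and 242.7 in DBA/2J (log2 difference 0.57, adjusted p = 0.654), against -0.18 for the brightest. DBA/2J array 2 was the lowest of all and the other two DBA/2J arrays the highest. The probe sets of Psmc4 gave -0.14 and 0.35, and those of Psmd13 ran from -0.41 to -0.03. With standard errors of 0.13 to 0.92 for these pairs, small differences between probe sets were not detectable.

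**Figure D5:**
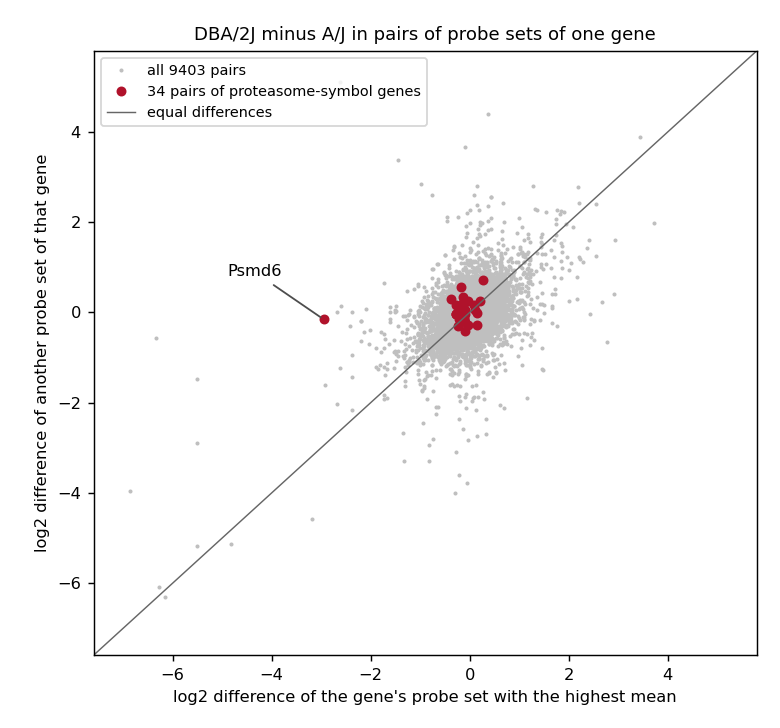
Strain difference (log2, DBA/2J minus A/J) of the probe set with the highest mean of a gene (x) and of another probe set of that gene (y), for 9403 pairs in grey and the 34 pairs of members in red; the line marks equal differences. Psmd6 lies far from the line at -2.95 and -0.15, and the other red points cluster near the origin.

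As a share of the total signal, the 46 genes made up 0.521%, 0.497% and 0.522% on the A/J arrays and 0.481%, 0.479% and 0.454% on the DBA/2J arrays, which did not overlap. Without Psmb6 and Psmd6, left out after their values were seen, the shares were 0.488%, 0.462% and 0.488% against 0.473%, 0.471% and 0.449%, which overlapped. Outside the members, the genes whose values followed the mean of the 46 genes most closely over the 6 arrays were Zscan10 (Pearson r = 0.986), Phf7, Tpm4, Smim3 and Gm5142 (0.973). None of these 5 was called. With 6 arrays and 13006 genes, such values of r are a description only.

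Partners of the proteasome that the symbol rule does not take were examined as a list of 50 genes, of which 40 had a named probe set and 39 were bright enough to test. By limma 0 were called, against 3.77% of all genes, and 6 (15.4%) had an unadjusted p under 0.05, a share like the 15.3% of all probe sets. The median was 0.06, against 0.03 for all genes. Nfe2l1, the factor that drives subunit transcription, had 689.9, 937.2 and 580.4 in A/J and 894.2, 847.2 and 1482 in DBA/2J (log2 difference 0.52, adjusted p = 0.428). Its relative Nfe2l2 had 4198.2, 1765.8 and 3416 against 2376.3, 2748.3 and 3793.6 (-0.01, adjusted p = 0.993). In both the strains overlapped.

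Pomp, the chaperone that matures the beta rings, had 2282.4, 3167.8 and 3078 in A/J and 2552.6, 3121 and 1830.6 in DBA/2J (log2 difference -0.20, adjusted p = 0.766). Psmf1, an inhibitor of the core particle, had 320.8, 543.4 and 652.9 against 739.4, 585.4 and 782.4 (0.51, adjusted p = 0.443). Again the strains overlapped. The lowest adjusted p of the list, 0.0621, was that of Uchl1, the neuronal ubiquitin hydrolase, with 615.2, 616.9 and 950.3 against 1160.3, 1734.8 and 1520.2 (1.01). Its strains did not overlap, as for 21.1% of all tested probe sets, and it was named after its values were seen.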

How the data were processed

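Total RNA from carotid body pools was labelled through repeated cDNA synthesis and in vitro transcription, per the labels' protocols, and hybridised to 6 Affymetrix Mouse 430 2.0 arrays. The deposited values are linear intensity signals per probe set, from 0.1 to 27051. Their 2%-trimmed mean is 500.0 on every array, so the authors had scaled them. Software: not given in the sources used here. No detection calls were used. Gene names are from the platform annotation held by GEO (34945 name 1 gene, 932 several, 9160 are unlisted; counts include no controls).

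In R 4.3.3 with limma 3.58.1, the 64 control probe sets were left out, log2(signal + 16) was taken, and the brightest 60% by mean (27022) were kept. The strain difference came from lmFit and eBayes (trend on mean level; two-sided p), with Benjamini-Hochberg adjustment over all kept probe sets at 0.05. Within-array differences between probe sets of a gene were fitted likewise over all pairs. Single values were compared by exact permutation. For genes, the kept probe set with the highest mean was used. Both fits were run on simulated data with independent noise for each value, so shifts shared by a whole array were not simulated. The outcome is not given here. Precision is limited by having 3 arrays for each strain.

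Members, lists and tests were chosen with earlier results of these data known. Named were all Psmd6 probe sets, called members, genes with discordant probe sets, catalytic subunits and activators, the brightest and dimmest gene of each role, the 10 largest differences, and set partners; 1 listed item is not reported here. Alternatives were quantile and median scaling, pseudocounts 1 and 64, no filter and the upper 40%, no trend, array weights, each array left out, the mean of a gene's probe sets, the dimmest probe set as reference, and titles' shared numbers as a fixed or random block. The series' rule was added after seeing the data. Figures were drawn with matplotlib 3.10.9.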

Additional observations from a re-analysis of the deposited data

How the results depend on the processing

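The main results are the falls of the Psmd6 _a_at probe set and Psmb6 and the gap between the Psmd6 probe sets. They passed under every alternative in which they were read, except the fixed replicate block. That block uses a number shared in the titles of 4 arrays (2 in each strain), which leaves 1 residual degree of freedom: the 3 values were -2.82 (adjusted p = 0.0672), -2.26 (0.140) and 2.61 (0.445), and 0 probe sets of members or of the array, and 0 pairs, were called. What the numbers mean is not stated in the sources used here. Same-numbered arrays correlated at -0.260 and 0.0351 in their deviations from strain means, and differently numbered ones at -0.264 to 0.202. With so few same-numbered arrays, these values cannot decide whether the numbers pair the samples. The random replicate block gave -2.95, -2.01 and 2.79. The mean of a gene's probe sets was read only for the median of the member genes and for the partner genes. Without 1 array each, the Psmd6 _a_at probe set ran from -3.05 to -2.83, Psmb6 from -2.22 to -1.61 and the gap from 2.65 to 2.91. The other 30 named probe sets kept their side of the threshold in all 477 alternative values. The median of the member genes, -0.10, was -0.031 with quantile normalization, -0.022 with the mean of a gene's probe sets, and ran from -0.116 (without A/J array 2) to -0.027 (without DBA/2J array 3) without 1 array. Called partner genes were 0, but 1 (Trim63) with a pseudocount of 64 or no filter, 4 with array weights and 1 (Uchl1) with the mean of probe sets. Over the array, 883 probe sets were called, 3007 with array weights and 345 to 1338 without 1 array (1338 without DBA/2J array 2, 413 and 397 without A/J arrays 1 and 3, 345 and 506 without DBA/2J arrays 1 and 3). The causes of these shifts were not tested. No scaling moved the median of all probe sets by over 0.1. No detection call shows which dim probe sets lie above background.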
